A study of Mus musculus with 8 samples.

Results

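A set of 10 feedback genes of the mitogen-activated protein kinase (MAPK) pathway was followed in mouse multipotent progenitors (MPPs): the phosphatase genes Dusp1, Dusp2, Dusp4, Dusp5, Dusp6 and Dusp10, the Sprouty genes Spry1 and Spry2, and the Spred genes Spred1 and Spred2. They were taken by name, and all 10 had a row among the 37980 gene rows of the table and were among the 11451 genes expressed well enough to be tested. Of the 10 genes, 3 were higher in NA MPPs than in WT MPPs at an adjusted p below 0.05 (Dusp1, Dusp5 and Dusp6), 0 were lower and 7 were not called. Over all tested genes, 10.1% were called higher and 7.87% lower, so that 56.1% of the calls were higher (41.3% under total-count scaling, which called the same 3 feedback genes).

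NA MPPs came from NA LSL/+; Vav-Cre mice, in which the NUP98-HOXA10hd fusion is expressed from the Rosa26 locus once Cre, made in blood cells under the Vav promoter, removes a stop cassette. WT MPPs came from wild-type mice carrying the CD45.2 marker, for which no Cre is named, so the fusion cannot be told apart from Cre. Both were C57BL/6. MPPs were sorted from bone marrow as Lin-CD48-ckit+Sca1+CD135+CD150- cells, 1000 cells went into each library, and there were 4 libraries per genotype, named here NA1 to NA4 and WT1 to WT4. The question put to these libraries was how the fusion alters the transcripts of MPPs. Age and sex of the donors are not given, nor whether the libraries of a group came from separate mice, so the p-values measure the spread between these libraries, which may be technical.

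Growth factor receptors switch on RAS, which drives the kinase chain from RAF through MEK to ERK, and stress signals drive the parallel JNK and p38 chains. Dual-specificity phosphatases take the activating phosphates off ERK, JNK and p38, and Sprouty and Spred proteins act further up, between the receptor and RAF. Many of these genes are themselves switched on by the kinases they restrain, which closes a negative feedback loop. In blood progenitors the pathway lies downstream of KIT, FLT3 and other cytokine receptors.

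The 3 genes that were called higher differed in the letters just before their start sites. The 250 bases before the RefSeq start of Dusp1, Dusp5 and Dusp6 (build GRCm38.p6) are printed because these are the 3 called transcripts and because 2 of them hold motifs of signal-responsive promoters. Capitals mark matches to the CRE (TGACGTCA), which CREB and ATF factors bind, to its core TGACG on either strand, and to the CArG box, the site of serum response factor. The Dusp1 stretch is chr17:26508473-26508722 on the minus strand, that of Dusp5 is chr19:53528895-53529144 on the plus strand, and that of Dusp6 is chr10:99262981-99263230 on the plus strand.
Dusp1: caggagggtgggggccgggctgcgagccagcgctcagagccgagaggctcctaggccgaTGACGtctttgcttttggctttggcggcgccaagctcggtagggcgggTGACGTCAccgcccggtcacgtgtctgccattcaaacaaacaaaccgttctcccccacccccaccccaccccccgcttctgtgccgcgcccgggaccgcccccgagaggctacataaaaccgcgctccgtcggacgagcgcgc
Dusp5: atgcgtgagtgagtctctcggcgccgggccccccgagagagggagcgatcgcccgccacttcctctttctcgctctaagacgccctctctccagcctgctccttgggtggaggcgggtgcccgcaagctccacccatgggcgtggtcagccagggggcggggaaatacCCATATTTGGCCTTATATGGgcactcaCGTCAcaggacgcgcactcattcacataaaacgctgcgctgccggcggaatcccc
Dusp6: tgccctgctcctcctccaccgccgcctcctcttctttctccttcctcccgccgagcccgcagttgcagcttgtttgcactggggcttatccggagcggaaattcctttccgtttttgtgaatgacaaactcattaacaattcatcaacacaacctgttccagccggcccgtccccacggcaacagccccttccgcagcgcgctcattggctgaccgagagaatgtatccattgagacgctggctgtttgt

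The Dusp1 stretch held 1 full CRE, from 143 to 136 bases before the start, and a further core match from 191 to 187 bases before it. Among 32851 mouse promoters of 300 bases (250 before the start and 50 after), 1.79% held a full CRE and 20.8% held the core, which also counts every full CRE. Dusp5 had a pair of directly adjacent CArG boxes, from 82 to 73 and from 72 to 63 bases before the start, and 1.63% of all promoters held a CArG box. It also had the CRE core on the opposite strand, from 55 to 51 bases before the start. Dusp6 had no match to any of the 6 motifs searched on both strands, which besides these were AP-1 (TGANTCA, in 7.81% of all promoters), EGR (GCGNGGGCG, 5.55%) and ETS (CCGGAA, 14.9%).

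RefSeq promoters were matched for 9 of the 10 genes, all but Dusp4. Besides the 3 genes above, Dusp2 held an EGR match from 98 to 90 bases before its start and a CRE core after the start, Spred2 a CRE core from 51 to 47 bases before it, and Spry2 an ETS match after the start. AP-1 was in 0 of the 9 promoters. Dusp10, Spry1 and Spred1 had no match. These are matches of letters in a short window and not measured binding sites. Other starts of a gene were not searched, and the RefSeq start used for Dusp1 and for Dusp10 lies far inside the gene position given below.

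**Figure D1:**
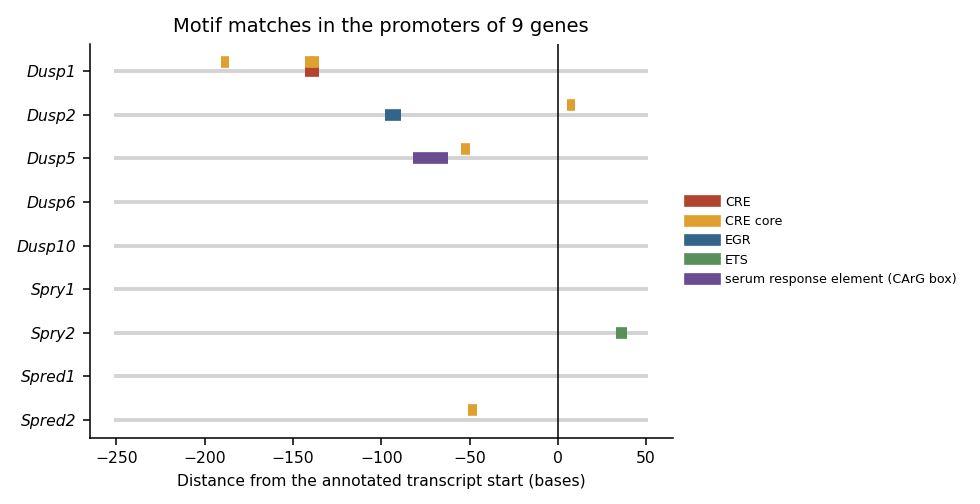
Positions of motif matches (coloured bars; CRE core raised above the line) in the promoters of 9 feedback genes, with distance from the annotated transcript start in bases on the horizontal axis and grey lines for the 300 bases searched. The full CRE lies only in Dusp1 and the pair of CArG boxes only in Dusp5, while Dusp6, Dusp10, Spry1 and Spred1 have no match.

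Gene positions below are those of GENCODE on GRCm38 (mm10). Values are normalised counts, that is, gene counts divided by 1 size factor per library. Depth was estimated at 3876906 to 4916987 reads per library, with NA4, WT2 and WT3 shallower than the other 5. Hoxa10, which forms part of the fusion and whose row does not tell fusion from endogenous reads, was at 324 ± 32.0 in NA against 139 ± 8.0 in WT MPPs (n = 4 each, SD), a change of 1.21 in log2 units (limma adjusted p = 2.57e-05; 0.00166 in libraries 1 to 3). Xist was at 1.92 ± 1.0 in NA against 1104 ± 173 in WT MPPs, whereas Eif2s3y, a Y-linked gene, was at 604 ± 70.8 in NA against 0.222 ± 0.444 in WT MPPs (SD, n = 4 each). Sex and genotype therefore cannot be told apart in any result, including the calls given above. None of the 10 genes lies on X or Y. Of the genes for the sorting markers, Kit, Flt3 and Slamf1 were not called (nor was Cd34, which was not used in the sort), and Ly6a and Cd48 were lower in NA (log2 fold changes -0.28 and -1.58, limma adjusted p = 0.0257 and 0.00711), neither of them called in libraries 1 to 3 (limma adjusted p = 0.164 and 0.0676). The summed markers of erythroid cells ranged from 34.3 to 64.9 in NA and from 147 to 296 in WT libraries, those of myeloid cells from 3139 to 3376 and from 3579 to 4570, and those of T and NK cells from 11.8 to 24.0 and from 12.5 to 24.9. Of the 7 T and NK cell markers, 5 were at 0 in all 8 libraries (Cd3d, Cd3e, Cd3g, Cd8a and Ncr1), while Cd4 ranged from 0.94 to 13.8 in NA and from 7.93 to 21.6 in WT libraries and Klrb1c from 10.2 to 12.2 and from 2.28 to 8.88. The 8 stem cell markers summed to 5374 to 6297 in NA and 3739 to 3802 in WT libraries. Hlf and Procr were higher in NA (0.93 and 0.42 in log2 units, limma adjusted p = 1.86e-06 and 0.00615). Tek was lower (-0.91, limma adjusted p = 0.0128), and 5 were not called. Over all tested genes, 10.1% were higher and 7.87% lower. In libraries 1 to 3 Procr was not called (limma adjusted p = 0.0777). The part of these differences in the results was not tested.

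The fourth library of each group lay between the others of its group more often than any other library did. Of 9000 genes with a mean of at least 50, WT4 lay between the lowest and the highest of the other 3 WT libraries in 75.4% and NA4 between the other 3 NA libraries in 66.5%, against 37.9% to 50.5% for the other 6 libraries. WT4 lay inside that range for all 10 feedback genes and NA4 for 8 of them, against 1 to 5 genes for the other 6 libraries. Whether the fourth libraries are independent of the others is not stated. If they are not, p-values from all libraries could be too small. The feedback genes and the called genes named below are therefore also given for libraries 1 to 3 of each group. There 519 genes were called, or 4.52% of 11494 tested (3.26% higher), and of the 10 feedback genes only Dusp1.

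**Figure D2:**
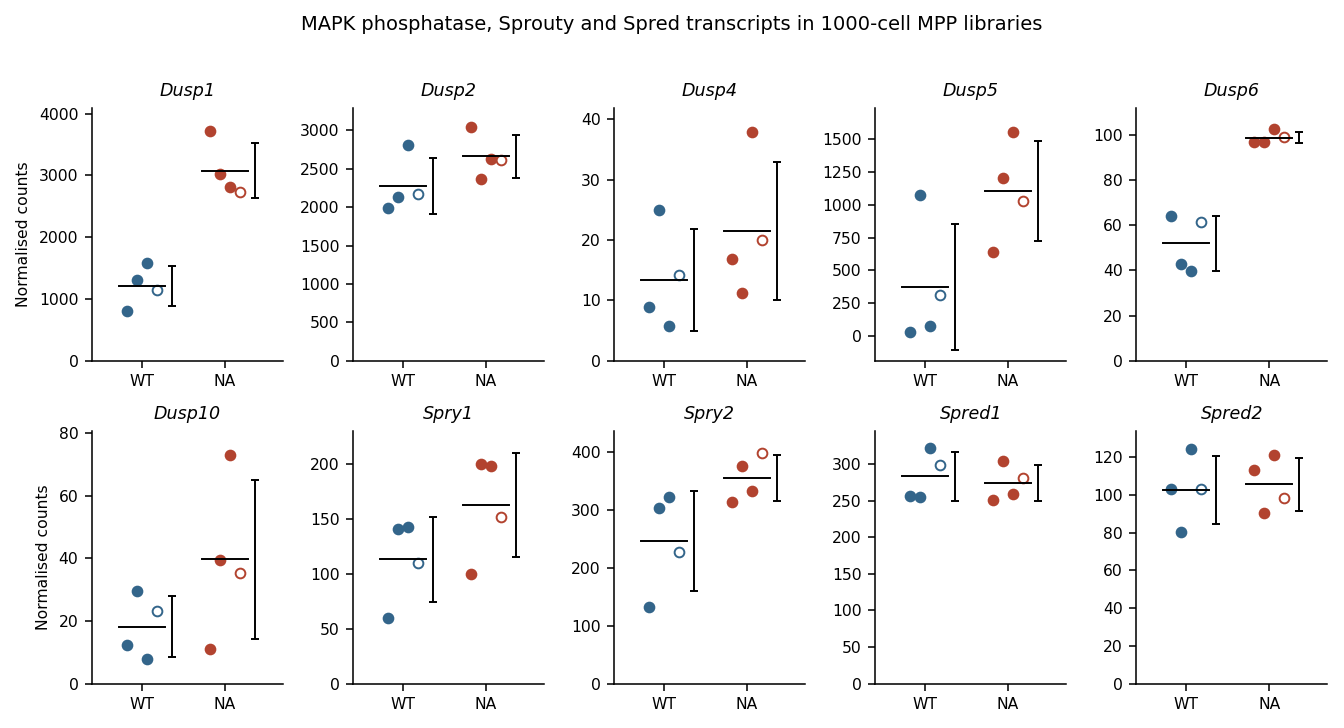
Normalised counts of the 10 feedback genes in each library (points; WT blue, NA red; open points are the fourth libraries), with the group mean (line) and SD (bar; that of Dusp5 in WT reaches below 0). Dusp1 and Dusp6 are the genes whose NA and WT points do not overlap, and the WT points of Dusp5 spread from 32.0 to 1072.

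The first of the nuclear phosphatases is Dusp1, an early-response gene whose product removes phosphates from p38, JNK and ERK. Dusp1 (ENSMUSG00000024190, chr17:26505590-26562128, minus strand) was at 3715, 3021, 2815 and 2738 normalised counts in NA1 to NA4 and at 810.5, 1309, 1579 and 1143 in WT1 to WT4. Every NA library was above every WT library, with WT1 the lowest of all. The group means were 3072 ± 445 and 1210 ± 322 (n = 4 each, SD), and they differed by 1.37 ± 0.16 in log2 units (SE; 95% interval 1.03 to 1.72, limma adjusted p = 7.28e-05). Dusp1 was called under all 20 alternative settings, with log2 fold changes of 1.19 to 1.52, and in libraries 1 to 3 it was 1.41 (limma adjusted p = 0.000899). In bulk libraries of this kind, fewer cells of a type and less RNA per cell cannot be told apart.

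Dusp2, a nuclear phosphatase found mainly in blood and immune cells, is the closest to Dusp1 in level. Dusp2 (ENSMUSG00000027368, chr2:127336159-127338376, plus strand) was at 3048, 2363, 2621 and 2611 in NA1 to NA4 and at 1990, 2131, 2809 and 2175 in WT1 to WT4. WT3 lay above 3 of the NA libraries, so the groups overlapped. The means were 2661 ± 284 and 2276 ± 364 (n = 4 each, SD), a difference of 0.23 in log2 units (95% interval 0.0015 to 0.46, limma adjusted p = 0.151). It was called without WT3, where it was 0.34 (limma adjusted p = 0.029), and with the GC trend removed, where it was 0.41 (limma adjusted p = 0.0134). It was 0.22 in libraries 1 to 3 (limma adjusted p = 0.387).

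Dusp5 encodes a nuclear phosphatase that acts on ERK and holds it in the nucleus, and it had the largest change of the 10 genes together with the largest WT spread. Dusp5 (ENSMUSG00000034765, chr19:53529109-53542431, plus strand) was at 637, 1205, 1559 and 1031 in NA1 to NA4 and at 32.0, 1072, 77.4 and 313 in WT1 to WT4. WT2 lay within the NA range, and the other 3 WT libraries lay below all NA libraries. The means were 1108 ± 384 and 374 ± 482 (n = 4 each, SD), and they differed by 2.62 ± 0.74 in log2 units (SE; 95% interval 1.03 to 4.21, limma adjusted p = 0.0262). The highest WT value was 33.6 times the lowest, and on the log2 scale the WT SD of 2.21 was larger than that of 99.8% of tested genes.

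The call of Dusp5 depended on single libraries and on settings of the test. It was lost without NA2, NA3, NA4 or WT3 (limma adjusted p = 0.0616, 0.0609, 0.0667 and 0.0781), in libraries 1 to 3 (log2 fold change 2.92, limma adjusted p = 0.0727), with no filter on low values (limma adjusted p = 0.119) and with no variance trend (limma adjusted p = 0.111). Without WT2 the log2 fold change was 3.5 (limma adjusted p = 0.000814), and without WT1 it was 1.82 (limma adjusted p = 0.049). It stayed above 0 in all 20 alternatives.

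Dusp4, whose product is a nuclear phosphatase of ERK, JNK and p38, was the lowest of the 10 genes. Dusp4 (ENSMUSG00000031530, chr8:34807297-34819894, plus strand) was at 16.8, 11.3, 37.9 and 20.1 in NA1 to NA4 and at 8.88, 24.9, 5.69 and 14.2 in WT1 to WT4. WT2 exceeded every NA library but NA3. The log2 fold change was 0.70 with a 95% interval of -0.39 to 1.78 (limma adjusted p = 0.365), an interval that takes in the change of Dusp1, with 5.0 to 41.0 estimated reads of Dusp4 per library. With 1 library left out it lay between 0.39 (without WT3, and also without NA3) and 1.04 (without WT2), and in libraries 1 to 3 it was 0.77 (limma adjusted p = 0.575).

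Dusp6 encodes the cytoplasmic phosphatase that acts on ERK, and it is a transcript widely read as a sign of ERK activity. Dusp6 (ENSMUSG00000019960, chr10:99263231-99267489, plus strand) was at 97.1, 96.8, 102.5 and 99.2 in NA1 to NA4 and at 63.9, 43.0, 39.8 and 61.3 in WT1 to WT4. The groups did not overlap, and the 4 NA values were close together while WT1 and WT4 stood above WT2 and WT3. WT2 and WT3 were the shallower WT libraries, whereas NA4, also shallower, lay between the other NA libraries. The means were 98.9 ± 2.62 and 52.0 ± 12.3 (n = 4 each, SD), and they differed by 0.94 ± 0.22 in log2 units (SE; 95% interval 0.48 to 1.40, limma adjusted p = 0.00854). Its NA SD of 0.038 on the log2 scale was larger than that of only 0.6% of tested genes. Dusp6 had at most 111 estimated reads in any library, so this small spread is not taken as a trait of the gene. With depth class as a term the log2 fold change was 0.86 (limma adjusted p = 0.0199). In libraries 1 to 3 it was 1.03 and no longer passed (limma adjusted p = 0.0675), the only one of the 20 alternatives in which it did not.

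Of the 10 genes, 2 did not overlap between the groups with NA higher (Dusp1 and Dusp6) and 0 with NA lower, against 11.5% and 10.5% of all tested genes. The median log2 fold change of the 10 was 0.65, and 9 of them were above 0. Over all tested genes the median was -0.01, and 48.8% were above 0.

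**Figure D3:**
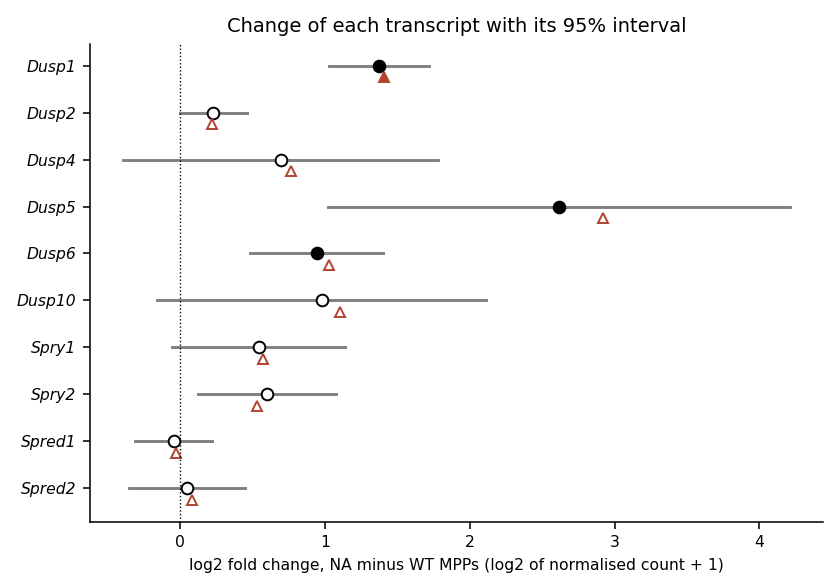
Log2 fold change (NA minus WT MPPs) of each feedback gene with its 95% interval (circles and lines, all 8 libraries) and the value from libraries 1 to 3 of each group (triangles), filled where the limma adjusted p was below 0.05. Dusp1, Dusp5 and Dusp6 are filled with all libraries, and Dusp1 alone with libraries 1 to 3.

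Dusp10 encodes a phosphatase of JNK and p38 rather than ERK. Dusp10 (ENSMUSG00000039384, chr1:184013302-184075636, plus strand) was at 11.2, 39.5, 72.9 and 35.4 in NA1 to NA4 and at 12.4, 29.4, 7.97 and 23.1 in WT1 to WT4. NA1 lay within the WT range and the other 3 NA libraries above it. The log2 fold change was 0.98, close to that of Dusp6, but with a 95% interval of -0.16 to 2.12 (limma adjusted p = 0.219). Without NA1 it was 1.47 (limma adjusted p = 0.0401), without NA3 0.60 (limma adjusted p = 0.458) and without WT3 0.66 (limma adjusted p = 0.429). It was 1.11 in libraries 1 to 3 (limma adjusted p = 0.397).

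Sprouty proteins are membrane-bound brakes on receptor signalling to RAS and RAF. Spry1 (ENSMUSG00000037211, chr3:37639947-37644598, plus strand) was at 99.9, 200.2, 197.6 and 151.2 in NA1 to NA4 and at 59.5, 140.4, 142.3 and 110.1 in WT1 to WT4. Spry2 (ENSMUSG00000022114, chr14:105891947-105896819, minus strand) was at 312.7, 376, 331.5 and 398 in NA1 to NA4 and at 132.3, 303.5, 321.1 and 226.4 in WT1 to WT4. In both genes WT1 was the lowest library, NA1 the lowest NA library, and the groups overlapped.

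Neither Sprouty gene passed the test. The log2 fold change of Spry1 was 0.54 (95% interval -0.06 to 1.14, limma adjusted p = 0.195) and that of Spry2 was 0.60 (95% interval 0.13 to 1.07, limma adjusted p = 0.0758). Spry2 lay nearer to the threshold and was called with depth class as a term (0.75, limma adjusted p = 0.0162), without WT2 (0.73, limma adjusted p = 0.0463) and without WT3 (0.75, limma adjusted p = 0.039). Without WT1 the log2 fold change was 0.33 for Spry2 and 0.26 for Spry1 (limma adjusted p = 0.162 and 0.491). In libraries 1 to 3 those of Spry1 and Spry2 were 0.57 and 0.53 (limma adjusted p = 0.399 and 0.308).

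The Spred genes, whose products bring neurofibromin to the membrane to switch RAS off, were the flattest of the set. Spred1 (ENSMUSG00000027351, chr2:117121374-117182279, plus strand) ranged from 251 to 305 in NA and from 255 to 322 in WT libraries, with a log2 fold change of -0.04 (95% interval -0.31 to 0.22, limma adjusted p = 0.847). Spred2 (ENSMUSG00000045671, chr11:19924375-20024026, plus strand) ranged from 90.2 to 121 in NA and from 80.4 to 124 in WT libraries, with a log2 fold change of 0.05 (95% interval -0.35 to 0.45, limma adjusted p = 0.889). For both genes the interval leaves out a doubling or halving, that is, a log2 change of 1 either way. The sign of so small a value was not fixed: Spred1 was at 0.02 without WT3, and Spred2 at -0.02 under total-count scaling. They were -0.03 and 0.09 in libraries 1 to 3 (limma adjusted p = 0.956 and 0.89).

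Levels per kb of transcript place the 10 genes on 1 scale. In NA MPPs Dusp1 and Dusp2 were level with each other, at 1711 ± 248 and 1646 ± 176 normalised counts per kb, whereas in WT MPPs Dusp1 was at 674 ± 179 and Dusp2 at 1408 ± 225 (SD, n = 4 each). The Dusp1 range in WT, 452 to 880, lay below that of Dusp2, 1231 to 1737. Dusp5 followed at 448 ± 155 in NA against 151 ± 195 in WT MPPs, and Spry2 at 170 ± 18.8 and 118 ± 41.3 (SD, n = 4 each). The WT levels of Dusp5 and Spry2 did not differ beyond their spread. Mean levels per kb of the remaining genes were, in NA and then WT MPPs, 73.5 and 75.9 for Spred1, 63.2 and 44.0 for Spry1, 39.4 and 38.3 for Spred2, 38.4 and 20.2 for Dusp6, 22.6 and 10.4 for Dusp10, and 7.85 and 4.90 for Dusp4.

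Related genes were then compared within each library. The log2 ratio of Dusp1 to Dusp2 was 0.29, 0.35, 0.10 and 0.07 in NA1 to NA4 and -1.29, -0.70, -0.83 and -0.93 in WT1 to WT4. It was above 0 in 4 of 4 NA libraries and below 0 in 4 of 4 WT libraries. The difference was 1.14 (exact two-sided permutation test over 70 label assignments, p = 0.0286, the smallest these can give). The adjusted p of this test over the 5 pairs examined was 0.143. When 1 pair alone has the smallest p, it cannot pass this correction, so the failure does not tell whether the ratio changed. In libraries 1 to 3 it was 1.19, where the smallest exact p is 0.1. The other 4 differences did not pass either, namely 0.68 for Dusp1 to Dusp4, -1.24 for Dusp1 to Dusp5, -0.06 for Spry1 to Spry2 and -0.09 for Spred1 to Spred2 (exact two-sided permutation test, adjusted p from 0.57 to 0.83). With 1 library left out, the difference for Dusp1 to Dusp4 ranged from 0.39 (without WT2) to 1.13 (without WT3) and that for Dusp1 to Dusp5 from -2.07 (without WT2) to -0.63 (without WT1). In the WT libraries the log2 ratio of Spry1 to Spry2 was -1.11 ± 0.06, a narrower spread than the -1.17 ± 0.42 of the NA libraries (SD, n = 4 each).

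Library by library, the genes followed more than 1 course. Dusp5 and Dusp10 had the same order within NA, with NA1 lowest, then NA4, NA2 and NA3. NA3 was the highest NA library for Dusp4, Dusp5, Dusp6 and Dusp10, and WT2 the highest WT library for Dusp4, Dusp5 and Dusp10. WT1 was the lowest WT library for Dusp1, Dusp2, Dusp5, Spry1 and Spry2, but the highest for Dusp6.

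**Figure D4:**
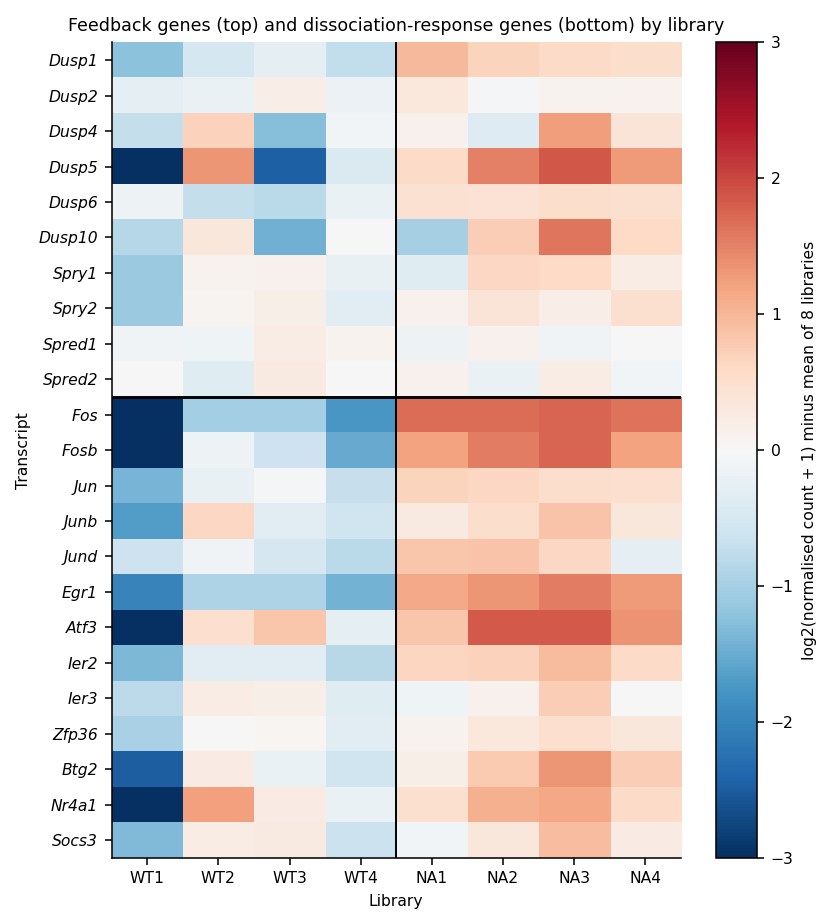
Log2(normalised count + 1) minus the mean of the 8 libraries, as colour, for the 10 feedback genes (above the line) and the 13 tested genes of the dissociation-response list (below the line), one column per library; colours stop at -3 and 3. WT1 is the lowest column for most dissociation-response genes and for Dusp1, Dusp2, Dusp5, Spry1 and Spry2. WT2 is above the mean for Dusp4, Dusp5 and Dusp10.

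Early-response transcripts, which also climb when tissue is dissociated and sorted, varied between the same libraries. Of 15 genes on that list, 13 were tested, 9 were higher in NA MPPs, 0 were lower, and the median log2 fold change was 1.42, beside 10.1% of all tested genes called higher. Fos, the AP-1 subunit, was at 20437 ± 665 in NA against 2248 ± 1125 in WT MPPs (n = 4 each, SD), a change of 3.37 in log2 units (limma adjusted p = 7.46e-06), with WT1 the lowest at 804. The list summed to 39001, 42618, 47560 and 40056 in NA1 to NA4 and to 5079, 16857, 14373 and 10046 in WT1 to WT4. Nr4a1, an early-response receptor gene, was at 42.6, 2411, 1226 and 898.5 in WT1 to WT4 and 1447 to 2297 in NA libraries (limma adjusted p = 0.191). The heat shock genes Hspa1a and Hspa1b were at or near 0, with at most 3.55 in any library. In libraries 1 to 3, 6 genes of the list were called, all higher, beside 3.26% of all tested genes, and Fos was at 3.37 (limma adjusted p = 0.000161). The part of this response in the values of Dusp1, Dusp2, Dusp5, Spry1 and Spry2 was not tested.

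The transcripts with the most similar profiles were found for each gene as the 3 with the smallest root mean square difference of centred log2 values over the 8 libraries, as a description. For Dusp1 they were Id2 (0.18), Jun (0.18) and Pigl (0.18). For Dusp5 they were Maff (0.48), Hey1 (0.55) and Fosl2 (0.63), and Maff and Fosl2 encode AP-1 family or related bZIP factors. Maff was at 10.7, 194.8, 34.2 and 66.6 in WT1 to WT4, the order WT1, WT3, WT4, WT2 that Dusp5 showed. Hey1 and Fosl2 had the same order. All 3 were chosen by likeness to Dusp5 in these libraries, so a shared order follows in part from the choice.

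For Spry2 they were Dnajb9 (0.13), Zfp36 (0.14), an mRNA decay factor of the early response, and Rrad (0.15). For Dusp6 they were Fut10 (0.12), Adss (0.12) and Mib1 (0.13), and for Spry1 Ccrl2 (0.17), Pde1c (0.19) and Acsl4 (0.20). They were Dgat1 (0.29), Cep164 (0.30) and Ccdc136 (0.31) for Dusp4, and Acvr1 (0.25), Slc16a7 (0.30) and ENSMUSG00000085607 (0.38) for Dusp10. Flat profiles lie close to many genes, as for Dusp2 with Map7 (0.05), Tmem185a (0.07) and Lat (0.07), Spred1 with Rasa2 (0.05), Aatf (0.07) and Rnf19a (0.07), and Spred2 with Pola2 (0.07), Sdsl (0.08) and Sf3a1 (0.08).

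The rest of the pathway was read from 6 further lists. Of 7 other phosphatase, Sprouty and Spred genes, 6 had a row and 3 were tested, and none passed: Dusp7 at -0.60, Dusp16 at -0.16 and Spred3 at -0.91 (limma adjusted p = 0.205, 0.585 and 0.201). All 3 log2 fold changes were below 0, and 9 of the 10 feedback genes were above 0. Of those 10 genes 7 were not called either, so no contrast is drawn from these signs. Dusp8, Dusp9 and Spry4 were under the filter, with at most 22.7 normalised counts in any library.

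Of 20 genes of the RAS to ERK chain, all tested, 1 was higher, 2 were lower and the median log2 fold change was -0.08, beside 10.1% higher and 7.87% lower over all tested genes. The gene that rose was Shc1, an adaptor between receptors and RAS, at 248 ± 51.0 in NA against 109 ± 2.54 in WT MPPs (n = 4 each, SD), a change of 1.16 in log2 units (limma adjusted p = 0.000274), which was also called in libraries 1 to 3 (limma adjusted p = 0.00755). The kinase genes Araf and Rps6ka1 fell by 0.43 and 0.46 on the log2 scale (limma adjusted p = 0.0135 and 0.0277), neither of them called in libraries 1 to 3.

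Among 18 genes of the JNK and p38 chains, 15 were tested, with a median of 0.11. Of these, 1 was higher and 0 lower, beside 10.1% higher and 7.87% lower over all tested genes. The one called was Mapk8, which encodes JNK, at 411 ± 54.2 in NA against 284 ± 30.9 in WT MPPs (n = 4 each, SD), a change of 0.53 in log2 units (limma adjusted p = 0.0113), and it was not called in libraries 1 to 3 (limma adjusted p = 0.0835). Mapk10 was at 0 in all libraries.

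Other inhibitors of RAS and ERK did not move as 1 group: of 13 tested, 1 was higher and 3 were lower, with a median of -0.13. Over all tested genes, 10.1% were higher and 7.87% lower. Errfi1, a feedback inhibitor of the EGF receptor, was at 41.5 ± 21.1 in NA against 12.9 ± 1.25 in WT MPPs (n = 4 each, SD), a change of 1.46 in log2 units (limma adjusted p = 0.0245). Pebp1, which holds back RAF, had 1476 ± 101 in NA against 1962 ± 114 in WT MPPs (n = 4 each, SD), a change of -0.41 in log2 units (limma adjusted p = 0.0033). The adaptor gene Dok2 fell by 0.83 and Rasa3, a RAS GTPase-activating protein gene, by 0.29 on the log2 scale (limma adjusted p = 0.0238 and 0.0288). In libraries 1 to 3 only Pebp1 was called (limma adjusted p = 0.0376).

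Transcripts commonly used as readouts of ERK activity formed a list that shares Fos, Egr1 and Ier3 with the dissociation response. Of 12 genes 7 were tested, with a median log2 fold change of 0.97. Of these, 4 were higher and 0 lower, beside 10.1% higher and 7.87% lower over all tested genes. The 4 were Fos, Egr1 at 2.64 (limma adjusted p = 7e-07), Myc at 1.04 (limma adjusted p = 0.00185) and Mcl1 at 0.97 (limma adjusted p = 0.00043). All 4 were also called in libraries 1 to 3, where 3.26% of all tested genes were higher. Etv5, Ccnd1 and Ier3 were not called (-0.01, 0.57 and 0.36, limma adjusted p = 0.971, 0.247 and 0.256), and Phlda1, Etv4, Epha2, Epha4 and Fosl1 were under the filter. Of 12 receptor genes 10 were tested, with a median of -0.23. Only Tek was called, beside 17.9% of all tested genes. It fell by 0.91 on the log2 scale (limma adjusted p = 0.0128, and 0.0481 in libraries 1 to 3).

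**Figure D5:**
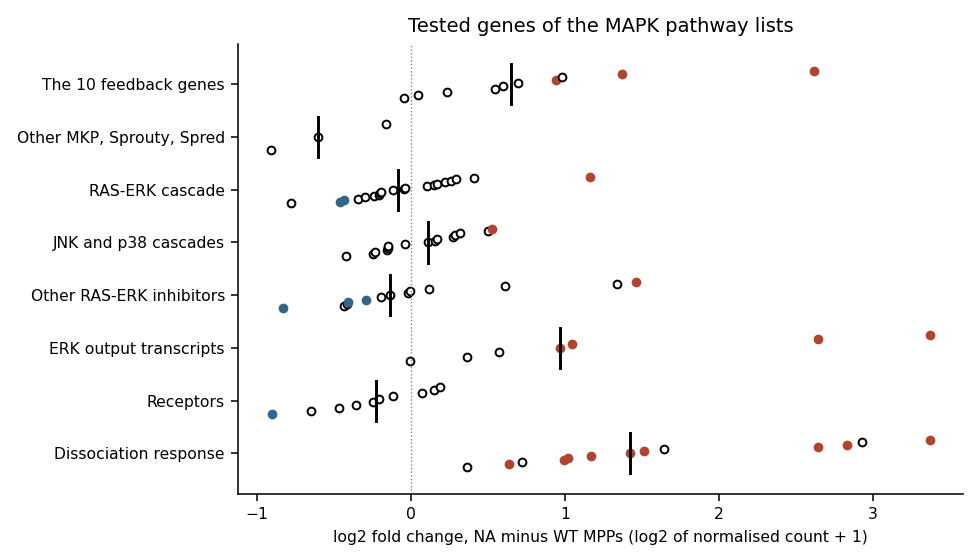
Log2 fold change (NA minus WT MPPs) of every tested gene in the 10 feedback genes and in 7 pathway lists (points; red called higher, blue called lower, open not called), with the median of each list as a bar. The medians of the feedback genes (0.65), the ERK output transcripts (0.97) and the dissociation response (1.42) lie to the right, and those of the other lists between -0.60 and 0.11.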

How the data were processed

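RNA of 8 sorted MPP libraries (4 NA, 4 WT, as titled) was amplified as cDNA, tagmented and sequenced. The authors quantified genes with RSEM and used DESeq2, on mm10 per the submitters' notes, while versions, annotation and strand are not given in the sources used here. The deposited table holds a normalised signal, gene counts that the authors had scaled by a size factor for each library: 98.3% to 98.9% of low values were whole multiples of 1 step (tolerance 0.05 reads), from which reads were estimated. Such reads without molecular identifiers are not independent molecules, and low counts limit Dusp4 and Dusp10 most.

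Symbols and coordinates came from GENCODE M21 (32916 of 37980 rows named). Genes with at least 10 in at least 4 libraries (3 without the fourth libraries) entered limma 3.58.1 (R 4.3.3) as log2(normalised count + 1), with a mean-variance trend, no covariates, and Benjamini-Hochberg adjustment over all tested genes. A fold change on this scale understates changes of low genes. The script was first tested on simulated data. Alternatives were other scalings, pseudocounts, filters, covariates and libraries left out. A planned count test was not run on these scaled values. Ratios of related genes were tested by exact permutation. Per-kb levels used the mean length of a gene's transcripts.

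The feedback genes and all lists were chosen with earlier results of these data known. Named genes were the 10 feedback genes, up to 5 called genes of each list, genes at or near 0, the fusion, sex-linked and gate genes, and the 3 nearest profiles of each feedback gene. Other genes not called were named after their values were seen.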

Additional observations from a re-analysis of the deposited data

How the results depend on the processing

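The number of genes called was 519 without the fourth library of either group and from 1106 (without NA4) to 2141 when 1 library was left out, against 2053 with all; it was 1294 without WT4. Of the 10 feedback genes, 1 was called higher without the fourth libraries and 2 to 4 with 1 library left out, against 3. Of the genes on the 7 pathway lists, 20 were called, 11 without the fourth libraries, and 13 (without NA4) to 22 with 1 library left out. Over all tested genes, 17.9% were called with all libraries and 4.52% without the fourth libraries. Total-count scaling gave 2239 calls, of which 41.3% were higher against 56.1%, and called the same 3 feedback genes. Fewer libraries enter the fits that leave some out, but 2107 genes were called without NA1 and 2141 without NA3. The cause of these differences was not tested.

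With replicate number as a block, 2004 genes and 5 feedback genes were called (Dusp1, Dusp5, Dusp6, Spry1 and Spry2, the Sprouty genes at limma adjusted p = 0.0385 and 0.0415). Deviations of same-numbered libraries correlated at 0.15, 0.001, 0.003 and 0.237 for numbers 1 to 4, so not every pair was above 0.1, and the numbers were not taken to pair the libraries. NA1 and NA4 correlated best with the WT library of their own number, and NA2 and NA3 with WT4 and WT2.

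Some values near 0 changed sign. With 1 library left out, the log2 fold change of Spred1 ranged from -0.0946 to 0.022 (the latter without WT3) and that of Spred2 from -0.0632 to 0.144, and under total-count scaling Spred2 was at -0.0209. The difference in the Spry1 to Spry2 ratio was 0.0428 without the fourth libraries and -0.199 to 0.0987 with 1 library left out, and that of Spred1 to Spred2 was -0.213 to 0.0029 (the latter without NA3). Planned count tests (edgeR and DESeq2) were not run, because the values had been divided by size factors.

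No value of the 10 feedback genes lay far enough from the rest of its group of 4 to be singled out by Dixon's test.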
